A study of Mus musculus with 2 samples.

Results

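Of the genes named on the arrays, 8 that act in T cell signalling and costimulation were followed: *Thy1*, *Cd28*, *Cd5*, *Cd6*, *Zap70*, *Lat*, *Themis* and *Ubash3a*. They were taken by symbol from the platform annotation, which gives each of them 1 probe set, and make up 8 of 19505 named genes. The samples were progenitors of innate lymphoid cells (ILCs) sorted by flow cytometry from mice as lineage-negative, CD127-positive, α4β7-positive cells with intermediate c-Kit and Sca-1. The first group came from mice with a Yeats4 deletion and the second from wild-type littermates, with 1 array each. The Yeats4 protein binds acetylated histones through its YEATS domain. The labels do not give the allele, any Cre driver, the age of the mice or the number pooled. As each genotype had a single array, nothing below has a replicate check or a p-value. Differences are on the log2 scale, knockout-labelled minus wild-type, and "lower" or "higher" describes these arrays as measured. *Yeats4* itself read 5.90 on the knockout-labelled array, against 5.96 on the wild-type array (-0.06). Where its probes lie relative to the deletion is not known here, so this does not check the label.

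In T cells, the antigen receptor has no enzyme of its own. Src family kinases phosphorylate its CD3 chains, ZAP-70 docks there and phosphorylates the membrane adaptor LAT, and LAT gathers adaptors and enzymes that pass the signal to calcium, Ras and NF-κB. CD28 adds a costimulatory signal, whereas CD5, CD6 and UBASH3A are known mainly for restraining the response. ILCs are lymphocytes without a rearranged antigen receptor, and several of these genes, *Thy1* foremost, are also used by ILCs and their progenitors.

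As measured, 7 of the 8 genes were lower on the knockout-labelled array, and 4 of them (*Thy1*, *Cd28*, *Cd6* and *Themis*) were at least 2-fold lower. None was 2-fold higher. *Ubash3a* was the exception in direction. Among the 10881 genes with a mean level of at least 2.88, the median over all probe sets, 41% were below 0, 0.781% were at least 2-fold lower and 1.56% at least 2-fold higher. The 8 genes had a median difference of -0.87 (range -1.76 to 0.56), against 0.08 over all genes past that filter. All 8 passed the filter, and their lowest value on the knockout-labelled array was 2.94. In a sorted bulk sample, fewer cells of a type and less RNA per cell cannot be told apart.

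To compare genes of like level, each difference was set beside the 500 genes nearest in mean level, and their scatter is given as the local spread (scaled median absolute deviation). A second yardstick was the negative control level of 4.80, the higher of the 95th percentiles of the negative control probe sets on the 2 arrays. A gene under it on both arrays is called near background and gets no fold. Where only 1 array was under it, that array was set to 4.80 and the fold is written as "at least". For 6 of the 8 genes, fewer than 10 of the 500 genes of like level were as low, a position held by 1.99% of all genes past the filter.

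**Figure D1:**
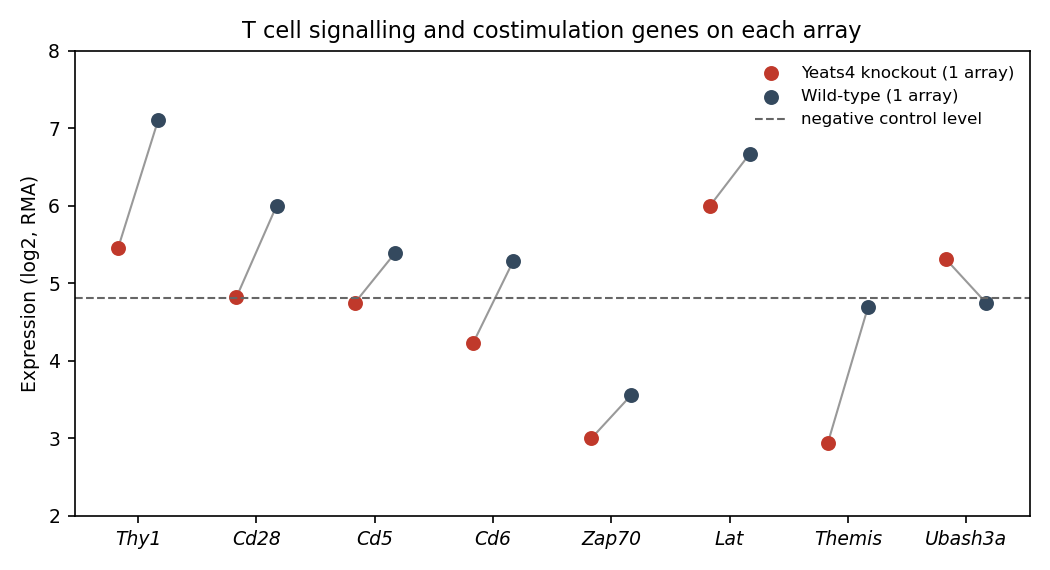
Expression of the 8 genes (log2, RMA) on the knockout-labelled array (red, left of each pair) and on the wild-type array (dark, right), 1 array each; the dashed line is the negative control level of 4.80. Of the 8 pairs, 7 slope upward towards the wild-type array and *Ubash3a* slopes the other way, while both *Zap70* and *Themis* points lie under the line.

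For 5 of the 8 genes (*Cd5*, *Zap70*, *Lat*, *Themis* and *Ubash3a*) the RefSeq table of GRCm38.p6 held a promoter window, running from 250 bases before to 50 after a start site. Stretches of *Themis*, *Zap70*, *Cd5* and *Lat* are shown because these were all lower as measured. Each runs 5′ to 3′ on the gene's strand and ends before the outermost annotated start of the gene. *Themis* is chr10:28668110-28668359 on the plus strand, *Zap70* chr1:36761548-36761797 on the plus strand, *Cd5* chr19:10739027-10739224 on the minus strand and *Lat* chr7:126369706-126369818 on the minus strand. Capitals mark matches to AGGAAG, a core of ETS factor sites, TGTGGT, a core of RUNX sites, CAGCTG, an E box, and CTTTGA, a core of TCF/LEF sites, searched on both strands.
Themis: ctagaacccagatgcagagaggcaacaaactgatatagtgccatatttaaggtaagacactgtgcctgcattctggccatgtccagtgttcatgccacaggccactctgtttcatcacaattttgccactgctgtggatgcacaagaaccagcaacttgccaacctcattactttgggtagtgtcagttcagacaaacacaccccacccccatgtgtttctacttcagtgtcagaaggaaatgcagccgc
Zap70: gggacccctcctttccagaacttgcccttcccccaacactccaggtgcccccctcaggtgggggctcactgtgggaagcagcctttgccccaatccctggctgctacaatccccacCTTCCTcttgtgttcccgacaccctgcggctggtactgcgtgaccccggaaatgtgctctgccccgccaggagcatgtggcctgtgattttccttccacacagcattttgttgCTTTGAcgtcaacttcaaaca
Cd5: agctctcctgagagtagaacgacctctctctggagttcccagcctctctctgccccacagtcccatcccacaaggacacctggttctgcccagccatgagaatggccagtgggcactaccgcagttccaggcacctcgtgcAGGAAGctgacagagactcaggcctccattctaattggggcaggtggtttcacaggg
Lat: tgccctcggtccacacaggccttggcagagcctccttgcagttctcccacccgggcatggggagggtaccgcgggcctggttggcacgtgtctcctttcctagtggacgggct

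Within the full 300-base windows, AGGAAG matched in 3 of the 5 genes (*Cd5*, *Zap70* and *Lat*), against 35.1% of 27025 promoters of that length, taking for each gene the window of its outermost start. TGTGGT matched in 1 (*Lat*, past the bases shown), against 16.9% of promoters. CTTTGA matched in 1 (*Zap70*), against 16.2%, and CAGCTG in 0, against 16.1%. The windows of *Themis*, lower as measured, and *Ubash3a*, higher, held none of the 4 motifs. Letters alone do not show that a factor binds there.

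Of the surface proteins, *Thy1*, which encodes the GPI-anchored glycoprotein CD90 of T cells and many ILCs, read 5.45 on the knockout-labelled array, against 7.11 on the wild-type array. Both values were above the negative control level, and the difference of -1.66 is 3.16-fold lower. The local spread was 0.29, and 0 of the 500 genes of like level were as low. Over all genes past the filter *Thy1* stood at number 10 from the lowest.

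*Cd28*, the receptor for CD80 and CD86, read 4.82 on the knockout-labelled array, against 5.9996 on the wild-type array. It was 2.27-fold lower (-1.18, local spread 0.39), with 3 of 500 genes of like level lower still. Its value on the knockout-labelled array lay close to the negative control level of 4.80.

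*Cd5* and *Cd6* encode scavenger receptor glycoproteins that associate with the antigen receptor, and the genes are adjacent on chromosome 19. *Cd5* read 4.74 on the knockout-labelled array, against 5.39 on the wild-type array, a difference of -0.64 (local spread 0.36) and at least 1.498-fold lower. *Cd6* read 4.22 on the knockout-labelled array, against 5.28 on the wild-type array, a difference of -1.06 (local spread 0.41) and at least 1.39-fold lower. Of 500 genes of like level, 9 were lower than *Cd5* and 3 lower than *Cd6*. Both genes were above the negative control level only on the wild-type array, so the 2-fold difference of *Cd6* is a measured value and not a limit.

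Of the signalling proteins, *Lat*, the adaptor that ZAP-70 phosphorylates, read 5.99 on the knockout-labelled array, against 6.67 on the wild-type array. It was 1.6-fold lower (-0.68, local spread 0.29) and above the negative control level on both arrays, with 4 of 500 genes of like level lower still.

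*Zap70*, the kinase that binds phosphorylated CD3 chains, read 2.996 on the knockout-labelled array, against 3.56 on the wild-type array. Both values were near background, and 55 of 500 genes of like level had a lower difference than its -0.56. Its difference lay inside the scatter of genes of like level.

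*Themis*, which encodes a protein required in developing thymocytes, read 2.94 on the knockout-labelled array, against 4.69 on the wild-type array. The difference of -1.76 was the lowest of the 8 genes, and 1 of 500 genes of like level was lower. Its wild-type value was also under the negative control level, so no fold is given. At mean levels between 2.88 and 4, where *Themis* and *Zap70* lie, 1.19% of genes and 8.46% of 733 negative controls were at least 2-fold lower. Between 4 and 5, the level of *Cd6*, these shares were 0.913% and 3.99% of 276 negative controls. Between 5 and 6 (*Cd28*) they were 0.542% and 2.59% of 116, and between 6 and 7 (*Thy1*) 0.251% and 4.55% of 44.

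*Ubash3a*, which encodes the phosphatase-like protein STS-2 (TULA), read 5.31 on the knockout-labelled array, against 4.74 on the wild-type array. It was at least 1.42-fold higher (0.56 as measured, local spread 0.37). Of 500 genes of like level, 60 were not lower than it, so this gene lay inside the scatter at its level.

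The 4 surface genes had a median difference of -1.12 (range -1.66 to -0.64). The 4 genes of intracellular proteins had a median of -0.62 (range -1.76 to 0.56). With values under 4.80 raised to it, *Thy1* and *Cd28* stayed at least 2-fold lower, 2 of 8 against 0.211% of all genes, and *Zap70* and *Themis* were at 0. At least 1.5-fold lower were 6 of the 8, against 5.16% of all genes, and 3 (*Thy1*, *Cd28* and *Themis*) lay at least 3 local spreads below the median of their like-level genes, against 0.524%. In the other direction none of the 8 passed these 3 rules, against 0.175% of all genes with raised values, 9.16% at 1.5-fold and 0.432% at 3 local spreads.

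**Figure D2:**
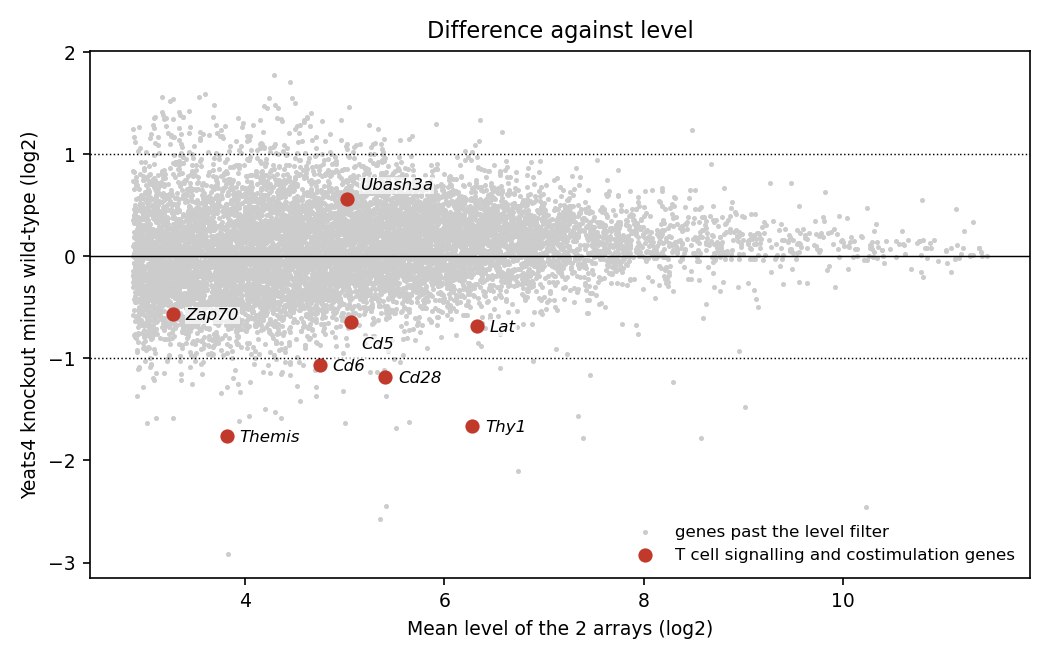
Difference between the knockout-labelled array and the wild-type array (log2) against the mean level of both arrays for the 10881 genes past the level filter (grey), with the 8 genes in red and dotted lines at 2-fold. *Thy1*, *Cd28* and *Themis* lie at or below the lower edge of the cloud at their levels, while *Zap70* and *Ubash3a* lie within it.

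By pair of values, the genes most like each of the 6 members that read above the negative control level on at least 1 array were found by Euclidean distance over the 2 arrays. For *Thy1* they were *Il2rb* (distance 0.56) and *Gimap6* (0.57), and no other gene past the filter lay closer. *Cd28* lay nearest to *Acp5* (0.06) and *Gabbr1* (0.12), *Cd6* to *Sh2d2a* (0.08) and *Sox15* (0.14), and *Lat* to *Pirb* (0.06) and *Fyn* (0.09). *Cd5* lay nearest to *Bpnt1* (0.05) and *3110082J24Rik* (0.06), and *Ubash3a* to *Kdm3b* (0.02) and *Txndc9* (0.02). With only 2 values per gene, such likeness is weak.

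The relatives of the 8 genes, several of which serve other blood cells, did not follow one direction: of 7, 3 were below 0 and 4 above, with a median of 0.06. *Syk*, the kinase related to *Zap70* and used by B and myeloid cells, read 6.65 on the knockout-labelled array, against 6.92 on the wild-type array (-0.26, local spread 0.28). *Lat2*, the LAT-like adaptor of B and myeloid cells, was near background at 0.06. *Themis2*, of B cells and macrophages, read 6.42 on the knockout-labelled array, against 6.19 on the wild-type array (0.23, local spread 0.29). The absolute differences of *Syk*, *Lat2* and *Themis2* were under their local spreads, although 37 of 500 genes of like level were lower than *Syk*.

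*Ubash3b*, which encodes STS-1, read 6.07 on the knockout-labelled array, against 5.57 on the wild-type array (0.50, local spread 0.32). Of 500 genes of like level, 55 were not lower. Like *Ubash3a*, it was higher as measured but lay inside the scatter at its level. *Cd5l*, a secreted macrophage protein of the scavenger receptor family that holds CD5 and CD6, read 4.39 on the knockout-labelled array, against 2.80 on the wild-type array. Its difference of 1.59 was above all 500 genes of like level, but both values were near background.

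*Cd28* lies beside its relatives *Ctla4*, an inhibitory receptor, and *Icos*, a costimulatory one, on chromosome 1. *Icos* read 4.68 on the knockout-labelled array, against 5.38 on the wild-type array, at least 1.495-fold lower (-0.70, local spread 0.38), with 5 of 500 genes of like level lower. *Ctla4* was near background at -0.07. The flanking genes on the other side, *Raph1* (0.36) and *Abi2* (0.38), were near background and higher. Around *Cd5* and *Cd6*, the flanking genes *Vps37c* (0.04) and *Slc15a3* (0.05) were near background and both changed sign after a loess correction on level. In all, 24 other protein-coding genes within 2 places of a member were measured, and 14 passed the level filter. None of the 14 differed 2-fold, against 0.781% of all genes at least 2-fold lower and 1.56% at least 2-fold higher. At those shares 14 genes need not hold any. Their median was 0.04 (range -0.70 to 0.46).

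Other genes of the pathway were taken from 6 lists, ordered by role. Of 104 genes listed, 92 were measured and 78 passed the filter, and the remaining 12 listed genes were not analysed here. As measured 55 of the 78 were below 0, against 41% of all genes, and their median was -0.21, against 0.08. With readings under 4.80 set to that level, 39 of the 78 were below 0, against 19.1% of all genes, and their median was -0.0023, against 0 over all genes. At least 2-fold lower were 7, against 0.781% of all genes, and 0 were 2-fold higher, against 1.56%. Of the 7, 4 were near background on both arrays, and only *Grap2* stayed 2-fold lower once readings under 4.80 were set to it. Of the 7, *Cd2*, *Sit1* and *Sh2d1a* were under the filter level on the knockout-labelled array and entered through the wild-type array, so the count holds genes that had to differ.

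Of the kinases and phosphatases at the receptor, 8 of 11 were below 0 and none differed 2-fold (median -0.21). *Fyn*, a Src family kinase that phosphorylates CD3 chains, read 6.08 on the knockout-labelled array, against 6.68 on the wild-type array (1.51-fold lower, -0.60), with 7 of 500 genes of like level lower. *Txk*, a Tec family kinase, read 4.16 on the knockout-labelled array, against 5.04 on the wild-type array, and was at least 1.17-fold lower (-0.87 as measured). The phosphatase gene *Ptpn7* was higher, with 6.90 on the knockout-labelled array, against 6.45 on the wild-type array (0.46, local spread 0.28). Of 500 genes of like level, 73 were not lower, so it lay inside the scatter at its level.

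Of the listed adaptors, 5 of 24 were at least 2-fold lower as measured, against 0.781% of all genes. The list median was -0.31, and 0 with readings under 4.80 set to that level. After that step only *Grap2* stayed 2-fold lower, 1 of 24 against 0.211% of all genes. Of the 5, *Sit1* and *Sh2d1a* entered only through the wild-type array, so they had to be lower. *Grap2*, which encodes GADS, the bridge between LAT and SLP-76, read 4.73 on the knockout-labelled array, against 6.09 on the wild-type array. It was at least 2.44-fold lower (-1.37, local spread 0.40), with 2 of 500 genes of like level lower. *Sh2d2a*, which encodes the T cell adaptor TSAd, read 4.15 on the knockout-labelled array, against 5.26 on the wild-type array, and was at least 1.37-fold lower (-1.11 as measured). *Sit1* (-1.25), *Skap1* (-1.12) and *Sh2d1a* (-1.02), adaptors of T and NK cells, were near background.

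Some direct partners of the LAT complex were chosen after their values were seen. *Plcg1*, the phospholipase that LAT recruits, read 5.85 on the knockout-labelled array, against 6.39 on the wild-type array (-0.54, local spread 0.32), with 6 of 500 genes of like level lower. *Lcp2*, which encodes SLP-76, was at -0.27 (local spread 0.29) and the exchange factor gene *Vav1* at 0.07, which became -0.09 after the loess correction. From the same list, *Grb2* was at 0.29 (local spread 0.30), with 331 of 500 genes of like level lower, and *Sos1* at -0.13 (local spread 0.31). Of these LAT partners, *Grap2* had the largest measured difference.

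Downstream of LAT, 13 of 18 genes were below 0 and none differed 2-fold (median -0.10). *Rasgrp1*, the Ras exchange factor driven by diacylglycerol, read 4.97 on the knockout-labelled array, against 5.90 on the wild-type array (1.90-fold lower, -0.92), with 7 of 500 genes of like level lower, and it passed 2-fold after the loess correction (-1.05) and quantile normalization (-1.03). *Prkcq*, the T cell protein kinase C theta, read 5.38 on the knockout-labelled array, against 6.12 on the wild-type array (1.67-fold lower, -0.74), with 3 lower. *Itpr2*, an IP3 receptor of the endoplasmic reticulum, read 5.55 on the knockout-labelled array, against 6.19 on the wild-type array (1.55-fold lower, -0.64), with 5 lower. These genes were above the negative control level on both arrays.

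Of the costimulatory receptors, 8 of 10 were below 0, 1 was above and *Cd84* was equal on both arrays. Their median was -0.58 as measured and -0.02 with readings under 4.80 set to that level, and *Cd2* and *Cd226* entered only through the wild-type array. *Slamf6*, an adhesion and signalling receptor of lymphocytes, read 5.57 on the knockout-labelled array, against 6.36 on the wild-type array (1.73-fold lower, -0.79), and 0 of 500 genes of like level were lower. *Cd2*, the receptor for CD48, was near background (-1.15). Coinhibitory receptors had 5 of 8 below 0 (median -0.09) and 5 of 8 near background. *Cd160* read 3.87 on the knockout-labelled array, against 5.03 on the wild-type array, at least 1.17-fold lower (-1.16 as measured), and *Lag3* (0.54) and *Btla* (-0.35) were near background.

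Of the ligands, 4 of 7 past the filter were below 0 (median -0.20). *Cd274*, which encodes PD-L1, read 4.61 on the knockout-labelled array, against 5.29 on the wild-type array, and was at least 1.40-fold lower (-0.68 as measured), and *Pdcd1lg2* (PD-L2) was near background at -0.28. *Alcam*, the ligand of CD6, read 6.47 on the knockout-labelled array, against 5.88 on the wild-type array, 1.51-fold higher (0.59, local spread 0.30), and 33 of 500 genes of like level were not lower. Over all genes past the filter, 9.16% were at least 1.5-fold higher. The CD28 ligand genes *Cd80* and *Cd86*, chosen after their values were seen, were under the filter and near background.

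**Figure D3:**
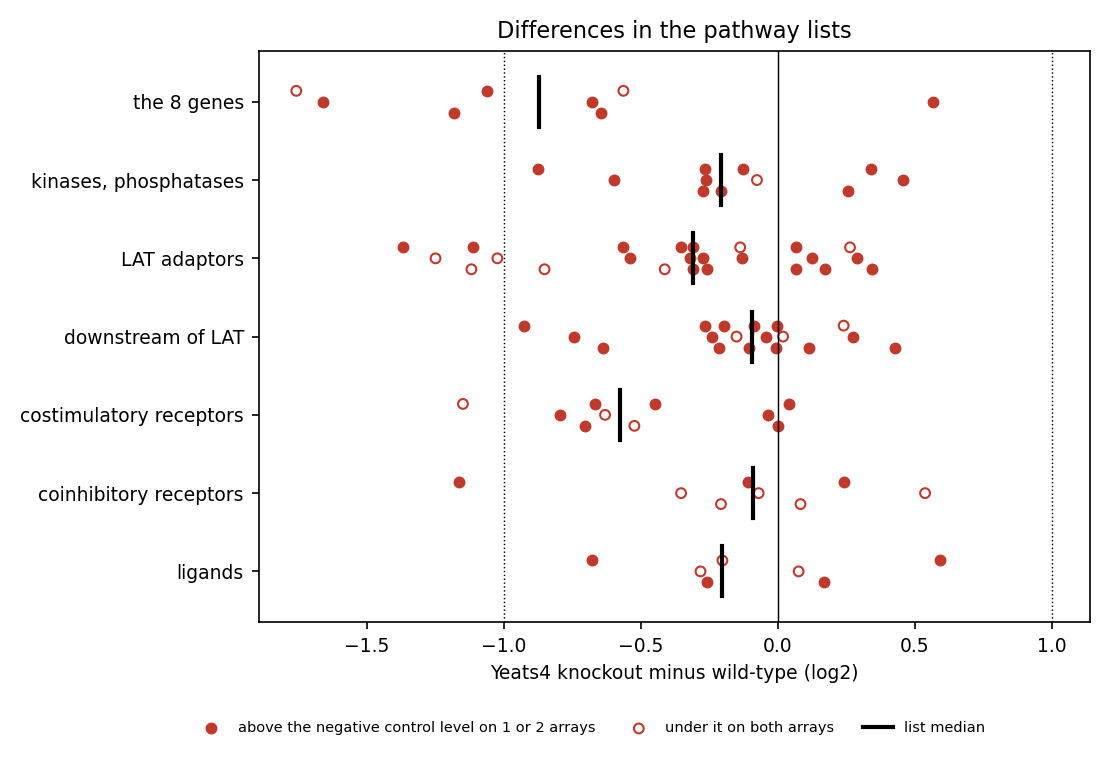
Differences (log2, knockout-labelled array minus wild-type array) of the 8 genes and of the genes past the level filter in the 6 pathway lists, 1 point per gene, with open points for genes near background on both arrays, a bar at each median and dotted lines at 2-fold. The 8 genes have a median of -0.87 as measured and -0.53 with readings under 4.80 set to that level, and the costimulatory receptors -0.58 as measured and -0.02 at that level.

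The sort was lineage-negative. Marker lists of other cells differed from each other in direction. The CD3 chains and coreceptors, best known from T cells, were lower for 6 of 7. Their median was -2.10 as measured and -1.01 with readings under 4.80 set to that level. Their values ran between 2.37 and 5.69 on the knockout-labelled array and between 5.28 and 7.79 on the wild-type array, and their linear levels summed to 175 on the knockout-labelled array and 599 on the wild-type array. None of the 7 was near background on both arrays. *Cd3d*, at 2.37, was under the filter level on the knockout-labelled array. It passed the filter through the wild-type array, so it had to be lower, and the 6 lower genes and both medians include it. *Cd3e* was 4.30-fold lower (-2.10), *Cd8b1* (-2.58) and *Cd8a* (-2.44) were each at least 3.57-fold lower, *Cd3g* (-1.63) at least 2.02-fold, *Cd247* (-0.87) at least 1.57-fold and *Cd3d* (-2.92) at least 1.395-fold. *Cd4* was at 0.09, which became -0.03 after the loess correction. Their part in the lower values of *Thy1*, *Cd28*, *Cd5*, *Cd6* and *Lat* was not tested.

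B cell markers were lower for all 11 measured, with linear levels that summed to 776 on the knockout-labelled array and 1417 on the wild-type array. *Vpreb1* (-1.37), *Pax5* (-1.32), *Blk* (-1.27), *Igll1* (-1.16) and *Vpreb3* (-1.02) passed 2-fold as measured. NK and ILC1 markers were lower for 7 of 12 measured and summed to 830 on the knockout-labelled array and 986 on the wild-type array, with *Ccl5* (-1.78), *Il2rb* (-1.09) and *Eomes* (-1.06) at least 2-fold lower as measured. *Nkg7*, the highest reading of that list on both arrays, was higher (0.53), with 480 of 500 genes of like level lower. ILC2 and ILC3 markers, of which 4 of 9 passed the filter, summed to 125 on the knockout-labelled array and 110.4 on the wild-type array, with 5 of the 9 measured lower. Of the 4, *Il1r1* (0.73) was above the negative control level on both arrays, *Rora* (0.44) and *Il13* (-0.34) were near background, and *Il17rb* was at -0.13.

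Macrophage markers ran the other way: all 11 measured were higher, and they summed to 882 on the knockout-labelled array and 569 on the wild-type array. Apart from *Cd5l*, *Axl* (1.14) was 2-fold higher and *Vcam1* was at 0.97. *Cd5l* and *Mertk* (0.75) were near background and under the filter level on the wild-type array. Both passed the filter through the knockout-labelled array, so they had to be higher. Neutrophil and eosinophil markers were lower for 8 of 12 and summed to 11522 on the knockout-labelled array and 11167 on the wild-type array, with the eosinophil genes *Ear6* (-1.78), *Alox15* (-1.68), *Epx* (-1.56) and *Prg2* (-1.48) at least 2-fold lower. The neutrophil granule genes *Ctsg* (0.72), *Prtn3* (0.55), *Elane* (0.34) and *Mpo* (0.25) were higher, whereas *Ltf* (-0.55) and *Camp* (-0.41) were lower. Lower values were thus also read for B cell and eosinophil genes. The part of any of these cells in the results for the 8 genes was not tested.

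**Figure D4:**
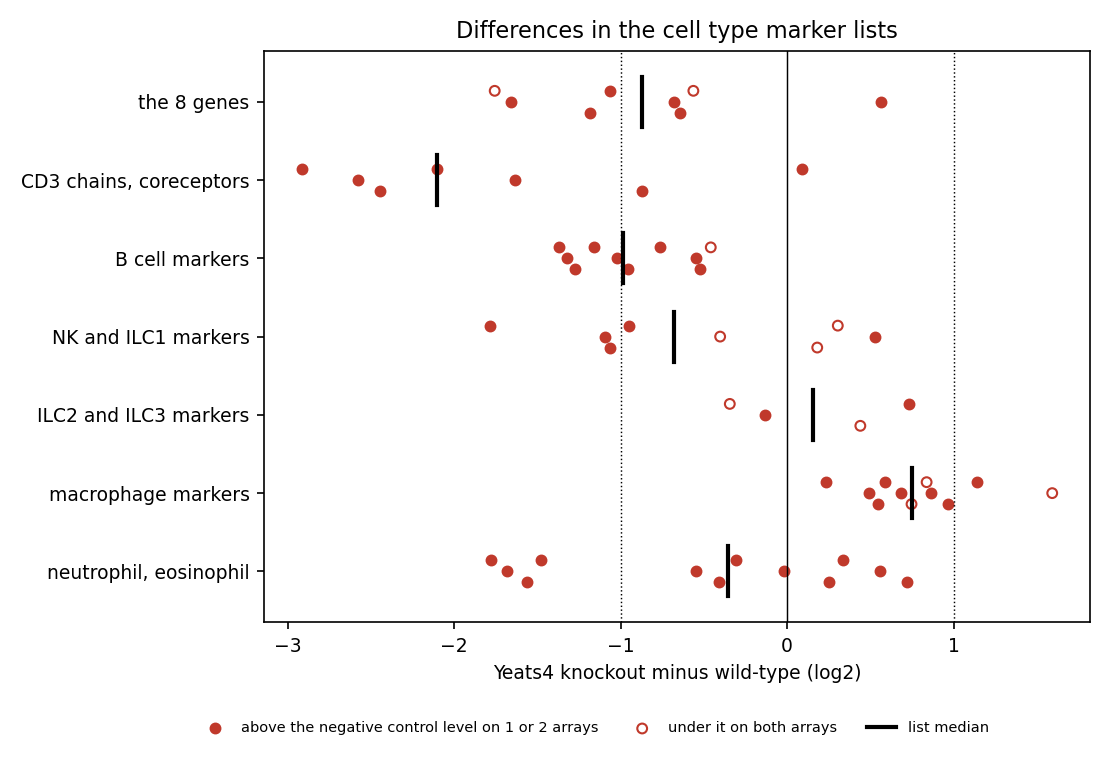
Differences (log2, knockout-labelled array minus wild-type array) of the 8 genes and of the genes past the level filter in the cell type marker lists, 1 point per gene, open where both arrays were near background, with a bar at each median and dotted lines at 2-fold. The CD3 and coreceptor list has a median of -2.10 as measured and -1.01 with readings under 4.80 set to that level. The macrophage list has 0.75 as measured and 0.55 at that level.

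Of the sort gate, *Il7r*, *Kit*, *Itga4* and *Itgb7* read above the negative control level on both arrays, and *Ly6a*, which encodes Sca-1, was not analysed here. *Il7r*, which encodes CD127, was lower (-0.70), *Kit* was higher (0.65), and the α4β7 chain genes *Itga4* (0.00) and *Itgb7* (-0.14) differed little. Of the factors of early ILC progenitors, *Id2* read 9.11 on the knockout-labelled array, against 7.88 on the wild-type array. It was 2.35-fold higher (1.23), and all 500 genes of like level were lower. *Zbtb16*, which encodes PLZF, read 4.68 on the knockout-labelled array, against 5.04 on the wild-type array, above the negative control level only in wild type. *Nfil3* read 8.49 on the knockout-labelled array, against 9.43 on the wild-type array (1.91-fold lower, -0.93), and *Tox* 5.90 on the knockout-labelled array, against 6.48 on the wild-type array (1.49-fold lower, -0.58), each with 3 of 500 genes of like level lower. *Cd3e*, usually a target of lineage depletion, was above that level on both arrays.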

How the data were processed

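The deposited log2 expression values came, per the submitters' processing notes, from Affymetrix Power Tools and RMA run by the authors, which corrects background, quantile-normalizes the arrays and summarises probes. Tool versions and a genome build were not given in the sources used here. Such scaling hides a change in total RNA per cell, and with 1 array per genotype the number of arrays limits the precision. The series describes a Mouse Gene 2.0 protocol, whereas the probe set names match the platform annotation of another Affymetrix mouse design, on which the gene names rest.

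Of 29129 probe sets, 19572 have 1 gene symbol, none has several, and the rest are unnamed here. They give 19505 genes, all found by gene ID in the RefSeq gene table of GRCm38.p6, used for names and gene order only. For the 55 genes with several probe sets, that of highest mean was used. Values were not centred further, and no unused column of sample values exists (0). Local spreads, counts and lower limits were computed with Python 3.11.15, numpy 2.4.6 and pandas 2.3.3, loess (span 0.3) with statsmodels 0.14.6 and figures with matplotlib 3.10.9. The counts of lower genes of like level were checked on simulated data. Local spread values, lower limits, loess and figures were not. Summed linear levels add 2 raised to each deposited log2 value. The 8 genes, lists, motifs and alternatives were chosen with earlier results of these data known. Named genes were the 8 genes, *Yeats4*, their relatives, the CD3 and coreceptor genes, the 2 nearest genes by value, and in each other list the 3 largest differences and any 2-fold difference past the filter, up to 6. Flanking genes, sort gate and ILC progenitor genes, *Nkg7*, *Il17rb*, *Cd226*, the neutrophil genes and other exceptions were named after their values were seen.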

Additional observations from a re-analysis of the deposited data

How the results depend on the processing

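Of the 8 genes, 4 passed 2-fold in the lower direction; the count was 2 (*Thy1* and *Cd28*) with the level filter at the 75th percentile (4.84), with a filter at 4.75 (taken from the means of negative control probe sets, 95th percentile) and after setting readings under 4.80 to that level. Under both stricter filters 5 of the 8 remained, because *Cd6*, *Zap70* and *Themis* dropped out. In the pathway lists the 7 genes at least 2-fold lower became 1 (*Grap2*) under those 3 settings and at 3 local spreads, and 18 at 1.5-fold. They became 6 after median centring, which took *Sh2d1a* to -0.98, and stayed 7 after the loess correction and quantile normalization, where *Sh2d1a* (-0.98 and -0.99) dropped out and *Rasgrp1* (-1.05 and -1.03) came in. The 0 genes higher there became 1 with no level filter (*Cd86*) and 1 at 1.5-fold (*Alcam*). Raised values took *Cd6* to -0.48, and *Zap70* and *Themis* to 0. Median centring, the loess correction and quantile normalization of the table kept 4 of the 8 genes 2-fold lower and 7 below 0. Differences ran between -1.81 and -1.62 for *Thy1*, -1.31 and -1.14 for *Cd28*, and 0.47 and 0.60 for *Ubash3a*. Averaging a gene's probe sets could not change the 8 genes, as each has 1 probe set. The median of the 8 genes ran between -0.98 and -0.53 over all settings. No alternative reversed a 2-fold difference, but setting readings to 4.80 can only bring a difference to 0. The shifts from centring, loess and quantile normalization were small beside 2-fold. The lack of reversals is therefore no check of direction. No paired analysis was possible because each genotype has 1 array.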

Other observations

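Of the 10881 genes past the level filter, 81 had exactly equal deposited values on both arrays, *Cd84* among them.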
